A study of Mus musculus with 4 samples.

Results

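Plasma cell-rich spots were the capture spots of the mouse ovary with the highest share of immunoglobulin transcripts. A Visium spot reads the RNA of a small patch of tissue and can hold several cells of different types, so a plasma cell-rich spot is a region and not a cell. The score of a spot was the summed UMIs (unique molecular identifiers, counts of captured RNA molecules) of Igkc, Igha, Ighm, Ighg1, Ighg2b, Ighg2c and Jchain per 10000 UMIs of the spot. The top 7% of spots with at least 1000 UMIs, pooled over the series, were chosen by this score: 289 of 4134 spots, from 4191 in all. What follows for the 7 genes is therefore a description with no test.

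The study placed ovary sections of outbred CD-1 female mice on 4 capture areas. Each area held 1 section of a young mouse (3 to 4 months old) and 1 of an aged mouse (15 to 16 months old). The sections are called Y1 to Y4 and A1 to A4, as in the labels. The mice reached these ages without intervention, and the labels name no treatment or engineered allele. The 2 sections of an area share 1 library, and the labels give 4 mice per age.

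Plasma cells are the antibody-secreting end stage of the B cell lineage. Each plasma cell makes 1 heavy chain (mu, gamma, alpha or epsilon, from Ighm, the Ighg genes, Igha or Ighe) and 1 light chain (kappa from Igkc, or lambda from the Iglc genes). IgA and IgM are secreted as polymers that carry the joining chain, the product of Jchain, and epithelia of the reproductive tract export them with the polymeric immunoglobulin receptor, Pigr. Long-lived plasma cells depend on stromal niches that supply chemokines such as Cxcl12 and survival factors such as Tnfsf13 (APRIL) and Tnfsf13b (BAFF).

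The difference between the polymeric and the monomeric classes can be read at the 3' end of the coding sequence of the secreted heavy chain. The ends of 6 heavy chain genes are shown because the spots divided by these genes. They are the last 60 coding bases of each secreted transcript, stop codon included, from GENCODE M21 on mm10, all on the minus strand of chromosome 12. Capitals mark a cysteine codon. In Igha and Ighm it is followed by 2 codons, the stop codon among them, and lies in the tailpiece through which the chain bonds to the joining chain. The 4 IgG genes hold no cysteine codon in these 20 codons.
Igha (chr12:113258768-113258827): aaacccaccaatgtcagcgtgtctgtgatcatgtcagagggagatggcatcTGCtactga
Ighm (chr12:113420867-113420926): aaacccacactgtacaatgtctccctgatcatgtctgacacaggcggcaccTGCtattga
Ighg1 (chr12:113328976-113329035): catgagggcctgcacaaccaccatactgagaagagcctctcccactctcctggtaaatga
Ighg2b (chr12:113306389-113306448): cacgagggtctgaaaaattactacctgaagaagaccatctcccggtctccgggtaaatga
Ighg2c (chr12:113287389-113287448): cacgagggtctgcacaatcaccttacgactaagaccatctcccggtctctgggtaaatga
Ighg3 (chr12:113359665-113359724): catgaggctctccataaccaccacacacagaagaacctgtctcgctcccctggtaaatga
The secreted coding sequences of Ighg2b and Ighg2c were 85.6% identical, and 56 of the 1065 windows of 50 bases of the Ighg2b transcript (5.26%) also stood in Ighg2c. No such window was shared between any other pair of the 6, so reads may be exchanged between Ighg2b and Ighg2c. The reference carries Ighg2c; whether the outbred mice carried this gene or its allele Ighg2a was not tested.

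Total UMIs per section ran from 2777948 to 21619232. The 2 sections of an area were told apart by their place on the slide, so both ages of an area would be swapped if its image were rotated, which the files do not show either way. Area 3 stood apart. The summed level of 7 oocyte markers in other spots was 151 to 480 CPM (UMIs scaled to a common library total) in Y1, Y2 and Y4 and 27.5 to 34.5 CPM in A1, A2 and A4, but 31.4 CPM in Y3 and 369 CPM in A3. The ages of Y3 and A3 are given as labelled throughout. Of 2204 spot barcodes, 1358 occurred in more than 1 area, since the barcodes name fixed positions of the array.

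The plasma cell-rich spots were very unevenly spread over the ovaries. Section A2 held 146 of 634 spots (23.03%, Wilson 95% interval 19.9 to 26.5%), Y3 held 84 of 535 (15.7%, 12.9 to 19.0%), A1 held 21 of 299 (7.02%, 4.64 to 10.5%) and A4 held 23 of 396 (5.81%, 3.90 to 8.56%). The other sections were nearly empty of them, with 7 of 530 in Y1 (1.32%), 7 of 730 in Y2 (0.959%), 1 of 249 in A3 (0.402%) and 0 of 761 in Y4, which allows a share of up to 0.394%. The intervals cover counting error only. By age, the share was 9.07% ± 9.74 in aged and 4.495% ± 7.49 in young sections (SD, n = 4 each), and the groups overlapped through Y3 and A3. In 3 of 4 capture areas the aged section held the larger share, and area 3 had the opposite order. Without area 3 the share was 11.95% ± 9.61 in aged and 0.760% ± 0.682 in young sections (SD, n = 3 each), and those groups did not overlap. Area 3 held the sections through which the groups overlapped, so leaving it out fixed that outcome and adds no separate support. The score chose the spots, so these shares carry no test, and a larger area of plasma cells and more immunoglobulin RNA per cell cannot be told apart.

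The median plasma cell-rich spot had 35.1 score UMIs per 10000 and the highest 1888, against a median of 0.595 in the other spots. There was no gap at the threshold: the lowest chosen spot had 14.5713 and the highest spot left out 14.571, with 16 spots within 1 unit above it and 19 within 1 unit below. Counts behind a score ranged from 2 to 2422 with a median of 43, and 20 of the 289 spots rested on fewer than 10. Together the 289 spots held 26665 of 36014 score UMIs (74.0%). The chosen spots had fewer UMIs than the others of their section, with medians of 9730 against 16359 in Y3, 7419 against 14322 in A1, 12529 against 13908 in A2 and 7054 against 16641 in A4.

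**Figure D1:**
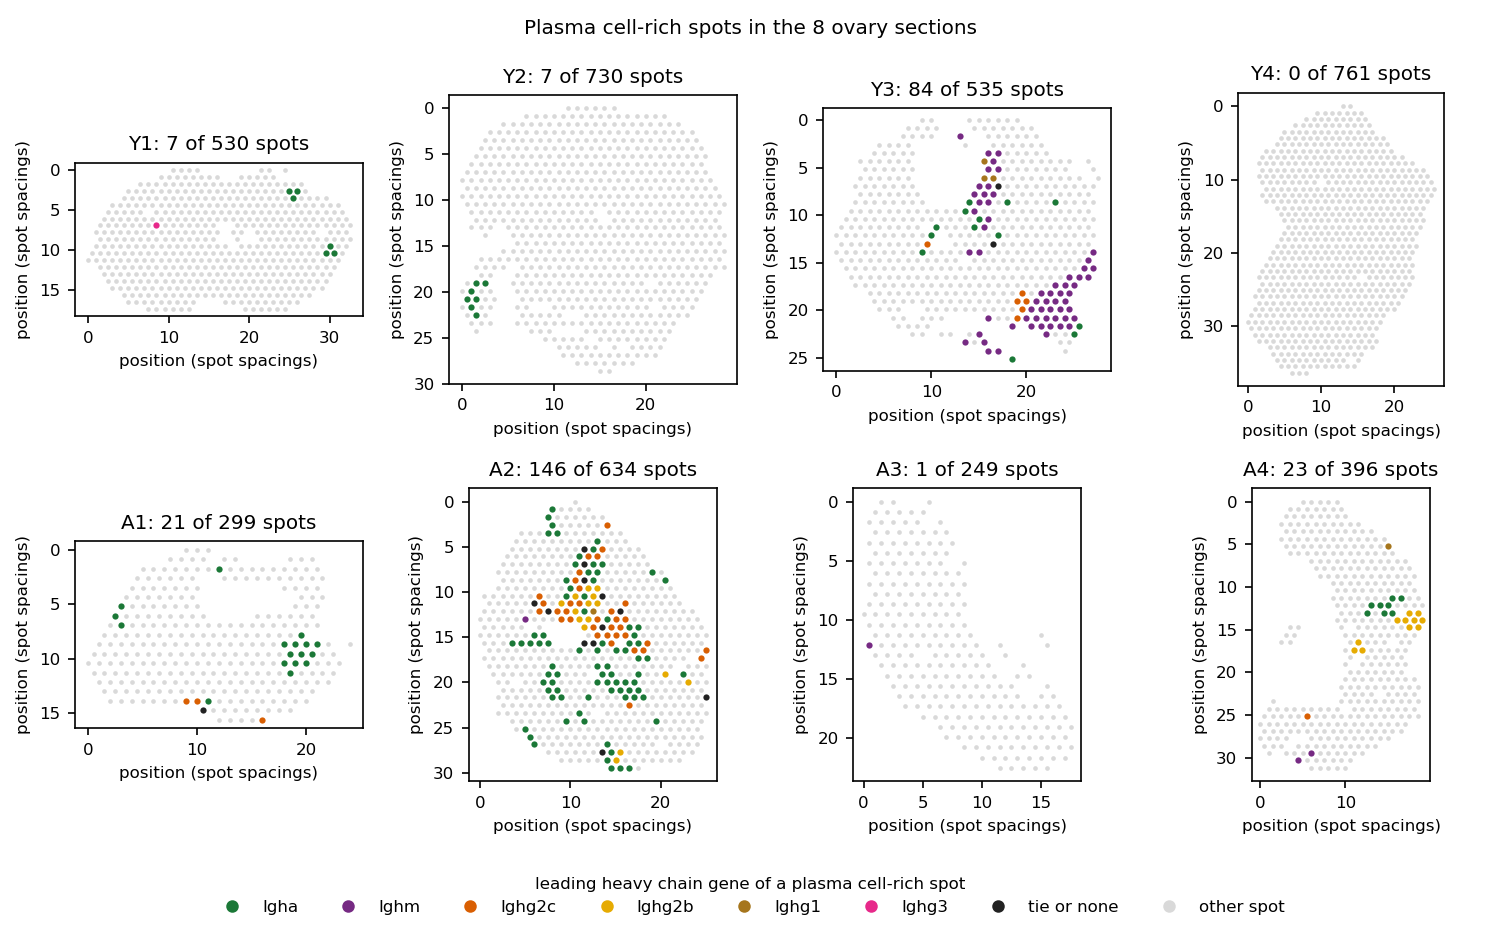
Maps of the 8 sections, with both axes in spot spacings. Each point is a spot with at least 1000 UMIs, grey for other spots and coloured by the heavy chain gene with the most UMIs for plasma cell-rich spots. The 146 rich spots of A2 and the 84 of Y3 lie in patches, and Y4 has none.

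Plasma cell-rich spots lay next to each other. Of the neighbouring positions of rich spots, 68.1% were rich in Y3, 62.3% in A2, 52.3% in A1 and 40.0% in A4, against 5.16%, 10.9%, 3.44% and 3.45% of the positions around other spots. Joined through their 6 neighbours, the 289 spots formed 47 patches, of which 19 had at least 3 spots and 23 were single spots. The largest patch of each section held 80 spots in A2, 43 in Y3, 16 in A4 and 12 in A1, and in Y2 all 7 spots were 1 patch. Around the spot of highest score the score must be lower, since that spot was picked as the maximum, but how far it fell differed between sections. In A1 the score was 1147 at the spot, 51.9 in the 6 spots around it, 11.4 at 2 steps and 1.86 at 3 steps. In Y1 it fell from 478 to 14.0 and 1.40 over the same steps, and in A2 from 1888 to 281, 53.5, 26.7 and 19.7, with 30.4 at 5 steps. In Y3 it fell from 364 to 24.0 and stayed at 33.1, 18.5 and 15.8 at 2, 3 and 4 steps. The Y2 patch was flat, with 60.7 at its highest spot and 9.41, 10.3 and 9.46 at 2, 3 and 4 steps.

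The hottest spots show what such a region contains. In A2, 18.9% of the 12827 UMIs of the highest spot were score genes: 1452 of Igkc, 342 of Ighg2c, 287 of Ighg2b, 141 of Ighg1, 54 of Igha and 142 of Jchain. In A1 the highest spot held 7419 UMIs, 11.5% of them score genes, with 460 of Igkc, 227 of Igha, 163 of Jchain and 1 of Ighg2c. The A1 spot was thus almost purely IgA, while the A2 spot mixed IgG subclasses. In Y3 the highest spot had 118 UMIs of Igkc, 39 of Ighm and none of Igha or IgG among 4397.

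The leading heavy chain class differed between sections: Igha in Y1, Y2 and A1, Ighm in Y3, and the IgG genes summed in A2 and A4. As a single gene Igha led in A2, where 82 of 146 rich spots were led by it. In Y1 and Y2 the rich spots were almost wholly Igha, with 261 of 293 heavy chain UMIs (89.1%, Wilson 95% interval 85.0 to 92.2%) and 247 of 251 (98.4%, 96.0 to 99.4%). In Y3 they were mostly Ighm, with 1199 of 1714 (70.0%, 67.7 to 72.1%), while Igha gave 15.5% and IgG 14.6%. In A1 Igha gave 81.3% (77.6 to 84.5%) and Ighg2c 16.5%. In A2 IgG gave 57.6% of 6061 heavy chain UMIs (56.4 to 58.9%), with Ighg2c at 28.6% and Ighg2b at 22.0%, and Igha gave 40.1%. In A4 Ighg2b alone gave 58.5% of 318 (53.0 to 63.8%) and Igha 25.8%. Ighm made up at most 1.58% in Y1, Y2, A1 and A2 and 9.75% in A4, so Y3 stood alone in its mu chain. Ighe, the heavy chain of IgE, was found in A2 alone, with 37 UMIs in rich spots and 12 in other spots.

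In spots outside the rich set the mix was broader. Ighm took 31.7% of heavy chain UMIs in the other spots of Y1 against 0.683% in its rich spots, and 34.1% against 9.75% in A4. In Y4, which held no rich spot, 168 of 276 heavy chain UMIs (60.9%) were Ighm and 31 were Igha. Ighd, which marks naive B cells, was at 0.047 to 1.68 CPM in the other spots of the sections, too low for a difference to be detectable in the smaller sums of rich spots, which held 1 Ighd UMI in all (A2, 0.51 CPM).

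**Figure D2:**
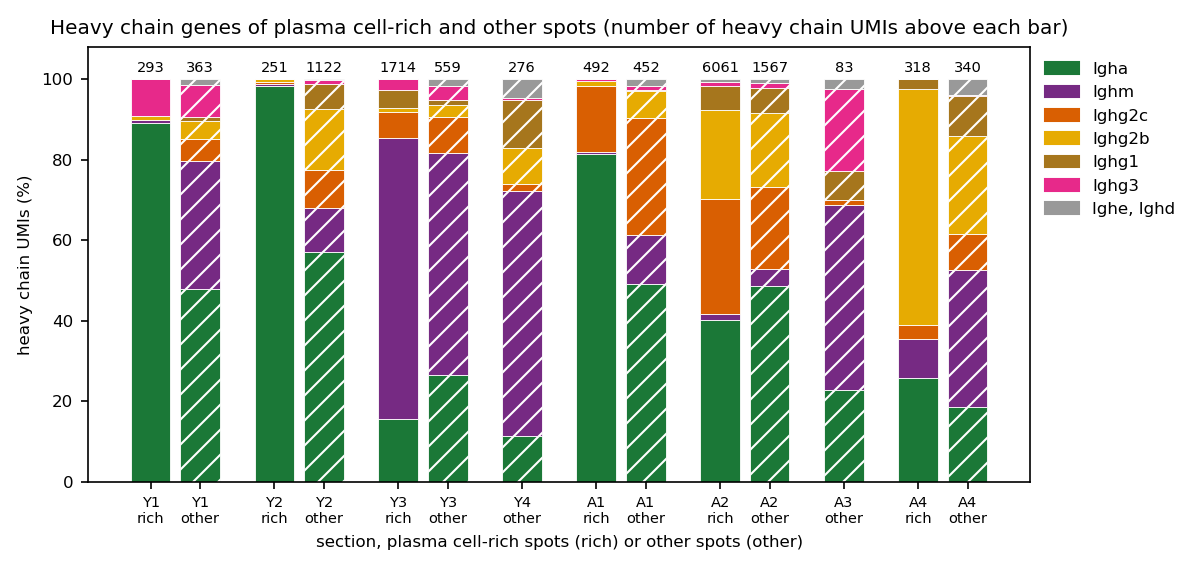
Share of heavy chain UMIs (y axis, percent) taken by each gene in plasma cell-rich (solid) and other (hatched) spots of each section, with the number of heavy chain UMIs above each bar. Igha fills 98.4% of the Y2 bar, Ighm 70.0% of the Y3 bar and Ighg2b 58.5% of the A4 bar.

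Single patches were often dominated by 1 heavy chain gene. Of the 289 rich spots, 133 were led by Igha, 64 by Ighm, 45 by Ighg2c, 26 by Ighg2b, 5 by Ighg1 and 1 by Ighg3, and 15 had a tie or no heavy chain UMI. Among the 202 spots with at least 10 heavy chain UMIs, 91 (45.0%) drew at least 80% of them from 1 gene. Of the 19 patches of at least 3 spots, 12 were led by Igha, 3 by Ighm, 2 by Ighg2b and 2 by Ighg2c. In A1 a patch of 12 spots was 98.3% Igha, while a patch of 4 spots in the same section was 74.7% Ighg2c and held 42 lambda light chain UMIs beside 110 of Igkc. In A2 the patch of 80 spots held 1643 UMIs of Ighg2c, 1168 of Ighg2b, 354 of Ighg1 and 951 of Igha, whereas the 6 next patches in size were 82.8 to 95.6% Igha. In A4 a patch of 3 spots was 95.2% Ighg2b with 0 Jchain UMIs.

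Jchain did not follow the heavy chain class alike in all sections, as a description of genes that the score used. In A1, spots led by Igha had 56.8 Jchain UMIs per 100 heavy chain UMIs and spots led by Ighg2c had 1.75. The second value rests on 1 Jchain UMI in 3 spots. Of the 233 Jchain UMIs of the Igha-led spots, 163 came from the spot of highest score. The Ighg2c-led patch of 4 spots in A1 had 17.9 Jchain UMIs per 100 heavy chain UMIs. Igha-led spots of Y1 had 41.4 and those of Y2 10.4. In A2 the ratio was 17.5 in Igha-led and 14.2 in Ighg2c-led spots. In A4 it was 0 in the 8 Igha-led and 4.00 in the 11 Ighg2b-led spots, so the order seen in A1 did not hold there. The Ighm-led spots of Y3, whose chain also carries the tailpiece cysteine printed above, had 10.9.

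The light chains of rich spots were mostly kappa, but the score that chose these spots counted Igkc and no lambda gene. Lambda constant genes (Iglc1, Iglc2, Iglc3) gave 0.602% of light chain UMIs in the rich spots of Y3, 0.713% in A2, 2.33% in A4 and 5.59% in A1. In the other spots of Y3, A2, A4 and A1 these genes gave a larger share, 4.63%, 1.85%, 6.31% and 10.8%. Their summed level was 23.8 CPM in rich and 3.05 CPM in other spots of Y3, 235 and 11.1 in A1, 38.8 and 4.11 in A2, and 48.9 and 3.37 in A4. All 4 sections had more lambda in rich spots, by a mean of 81.1 CPM ± 95.4 (SD, n = 4), which was 33.7 CPM without A1. The two-sided exact sign-flip permutation test gave p = 0.125, the smallest that 4 sections allow (0.50 adjusted over 4 measures), so the test could not reach 0.05. With Y1 and Y2 added, lambda was higher in rich spots of 6 of 6 sections, by 69.0 CPM ± 76.4 (exact p = 0.031, the smallest that 6 sections allow, 0.125 adjusted over 4 measures).

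A variable gene joined to the constant gene marks the receptor that a B cell clone uses, so variable segments were counted too. Of 348 variable genes in the tables, the rich spots of A2 had UMIs for 16 genes, those of Y3 for 7, A1 and A4 for 2 each, and Y1 and Y2 for 1 each. The most frequent was Iglv1, with 79 UMIs in 29 rich spots of A2 (24 in its other spots), 18 in A1, 10 in Y3 and 4 in A4, and in A2 a single spot held 26 of them. Igkv4-92, a kappa segment, had 25 UMIs in A2, 23 of them in the 80-spot patch and 10 in 1 spot, and only 2 in the other spots of that section. The 3' ends of these 2 segments on mm10 are shown because they are where CDR3, the most variable antigen-contacting loop, begins, with capitals for the conserved cysteine codon before that loop.
Iglv1 (chr16:19085017-19085076, minus strand): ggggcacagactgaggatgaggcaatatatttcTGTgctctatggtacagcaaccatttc
Igkv4-92 (chr6:68755038-68755097, minus strand): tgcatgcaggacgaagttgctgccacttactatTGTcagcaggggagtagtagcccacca
These are the reference segments, not sequences read from the mice. The reads of this assay start at the 3' end of the transcript, away from the variable part, and counts of Iglv1 may be shared with its close relative Iglv2. In the A2 spot with 26 Iglv1 UMIs the light chain constant UMIs were 1452 Igkc and 11 Iglc2.

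The label was then checked with genes outside the score. Sums of counts over rich and over other spots were compared within Y3, A1, A2 and A4, the 4 sections with at least 10 rich spots, by edgeR's quasi-likelihood test with section as a block and Benjamini-Hochberg adjustment over 12284 genes. Immunoglobulin genes were left out of the calls. Mzb1, an endoplasmic reticulum protein that helps plasma cells assemble antibody, was 21.5 CPM in rich and 2.60 CPM in other spots of Y3, 37.5 and 1.65 in A1, 37.8 and 3.85 in A2, and 27.2 and 1.30 in A4. Every rich value lay above every value of other spots, and Mzb1 rose by 3.51 ± 0.33 on the log2 scale (SE, adjusted p = 3.08e-07, edgeR). In Y1 and Y2, which did not enter, it was 29.2 against 1.43 and 5.35 against 1.26 CPM. The levels of rich spots rest on 18 Mzb1 UMIs in Y3, 8 in A1, 74 in A2 and 5 in A4, and on 5 in Y1 and 1 in Y2. Mzb1 was found in 28.1% of the rich and 5.94% of the other spots of A2, and in 17.9% against 4.88% of those of Y3.

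The rest of the plasma cell list did not separate the rich spots. Of 13 listed genes 8 were measured well enough to test, 1 was higher (Mzb1), 1 was lower (Sdc1) and the median log2 fold change was -0.01, against -0.03 over all genes. Over all genes 2.54% rose and 2.43% fell, so 1 call each way among 8 genes does not set the list apart. Sdc1, the surface proteoglycan CD138 that is also made by epithelial and other cells, was 362 CPM in rich and 431 CPM in other spots of Y3, 127 and 122 in A1, 219 and 555 in A2, and 185 and 877 in A4, and fell by 0.99 ± 0.25 (SE, adjusted p = 0.018, edgeR). The call was lost with DESeq2 (adjusted p = 0.114), against other spots of like UMIs (adjusted p = 0.0972) and without A4 (-0.61, adjusted p = 0.159). Xbp1, the transcription factor of the secretory programme, was 158 to 202 CPM in rich and 143 to 176 CPM in other spots, a difference of 0.19 ± 0.15 (adjusted p = 0.56). Tnfrsf17, the receptor BCMA, had 0 UMIs in all rich spots and 0.130 to 0.663 CPM in other spots of Y3, A1, A2 and A4. These depths show no difference for it. Irf4 was at 9.54 CPM in rich spots of Y3 and 3.06 in those of A2. It was at 0 in A1 and A4, where a count of 0 allows up to 14.1 and 16.3 CPM. Of 18 genes of the unfolded protein response and secretion, 0 were higher by edgeR at the adjusted threshold, against 2.54% of all genes. The chaperone gene Hspa5 was the 1 lower gene (-0.59 ± 0.16, adjusted p = 0.025), against 2.43% of all genes, and the median was -0.17. Counts this small in 18 genes are near the shares over all genes. The name plasma cell-rich therefore rests on the immunoglobulin genes, Jchain and Mzb1.

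Mature B cell genes were rare in rich and other spots alike. The summed level of 10 of them was 28.1 CPM in rich and 14.8 CPM in other spots of A1, 20.9 and 16.3 in A2, 27.2 and 16.7 in A4, 15.5 and 15.1 in Y3, 11.7 and 9.31 in Y1, and 0 and 6.81 in Y2. It was thus higher in rich spots in all of these sections but Y2. Of the 10 genes 3 could be tested and 0 were called by edgeR (Cd79b, a chain of the B cell receptor, Cd22 and Cd37), with a median of 0.46. Cd79b was 16.3 CPM in rich and 4.53 CPM in other spots of A4 but 0 and 5.15 CPM in A1. Ms4a1 (CD20), Pax5 and Cr2 were under 1 CPM in both kinds of spot, so their levels of 0 in most rich sums cannot be told from those of other spots. T and NK cell genes gave 7 tested and 0 called, with a median of 0.74. Cd3d, part of the T cell receptor complex, was 8.34, 18.8, 7.66 and 5.44 CPM in rich spots of Y3, A1, A2 and A4 and 4.52, 3.50, 3.32 and 2.72 CPM in other spots (1.28 ± 0.42, adjusted p = 0.078, edgeR).

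Over all 12284 genes, 312 rose (2.54%) and 299 fell (2.43%) in rich spots, and the counts above and below are read against these shares. The comparison had 3 residual degrees of freedom, and 271 of the 312 and 267 of the 299 kept 1 direction in all 4 sections. Against other spots of like UMIs, 96 of 10800 genes were called, 60 higher and 36 lower. Without section as a replicate block only 2 were called, Mzb1 and Mustn1. With Y1 and Y2 added, 10 genes were called, Slpi and Mzb1 among them.

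Slpi, the secretory leukocyte protease inhibitor of chromosome 2 that protects mucosa and tissue from neutrophil elastase, was the gene with the largest rise. It was 29.8 CPM in rich and 5.42 CPM in other spots of Y3, 14.1 and 1.44 in A1, 226 and 10.2 in A2, and 54.4 and 3.76 in A4. Rich spots were higher in every section, by 3.77 ± 0.27 on the log2 scale (SE, adjusted p = 6.84e-09, edgeR). Y1 (5.84 and 0.716 CPM) and Y2 (26.8 and 2.19 CPM), which did not enter, had the same order. The levels of rich spots rest on 25 Slpi UMIs in Y3, 3 in A1 and 10 in A4, and on 1 in Y1 and 5 in Y2. A2 gave the highest level, where 442 Slpi UMIs lay in 85 of 146 rich spots and 79 of them in the spot of highest score. Without A2 the rise was 2.99 ± 0.46 (adjusted p = 1.31e-06). In A2, Slpi stood at 464 CPM in the 51 IgG-led spots and 91.6 CPM in the 82 Igha-led spots, where the score was 143 and 60.9 per 10000. In Y3 it was 27.9 CPM in Ighm-led, 29.5 in IgG-led and 37.4 in Igha-led spots.

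**Figure D3:**
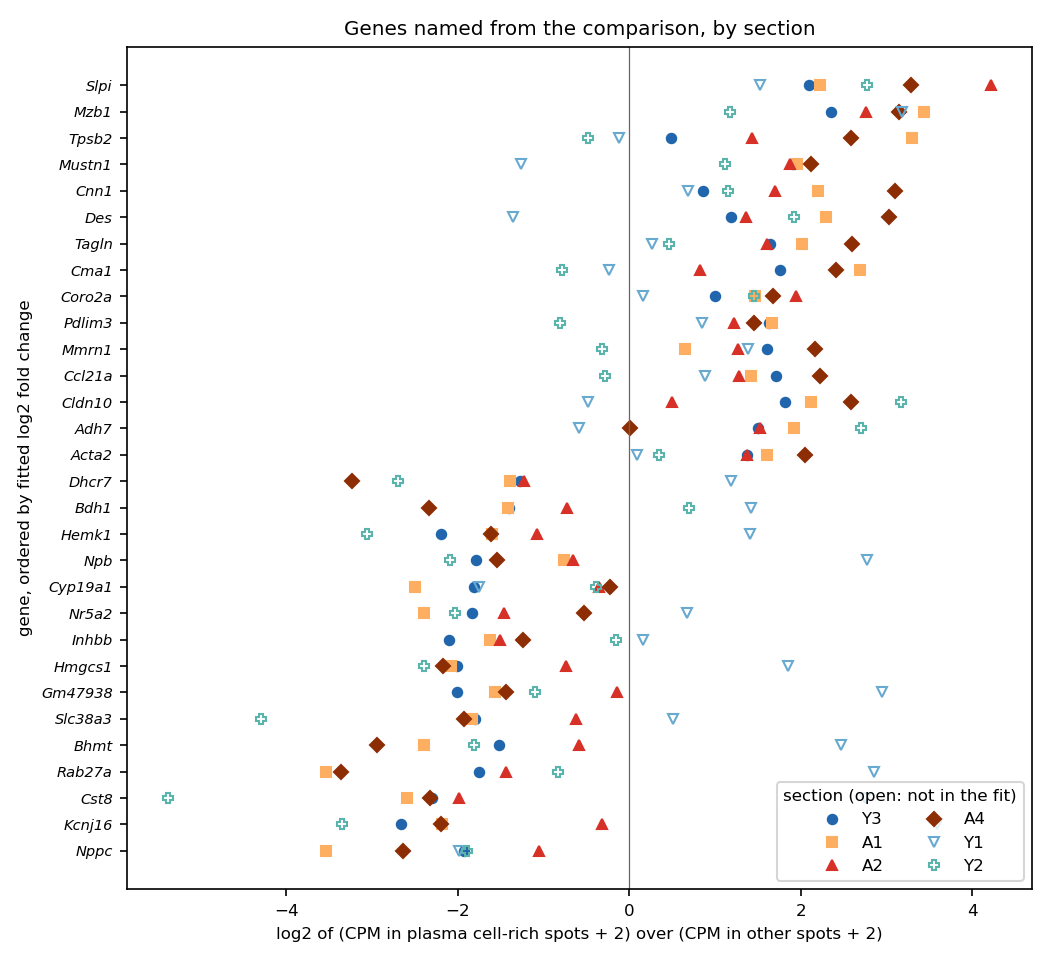
The 30 genes named from the comparison, 15 in each direction, with the log2 ratio of their level in plasma cell-rich over other spots on the x axis (2 CPM added to both) and 1 symbol per section. Filled symbols are the 4 sections of the fit and open symbols Y1 and Y2. Slpi and Mzb1 lie right of 0 in all 6 sections, whereas Cst8 lies left of 0 in the 4 filled sections and in Y2 but not in Y1. The Slpi point of Y1 and the Mzb1 point of Y2 each rest on 1 UMI in rich spots.

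Mast cell genes were higher in rich spots. All 4 listed genes were tested and 3 rose, with a median log2 fold change of 2.02. Tpsb2, a mast cell tryptase, was 7.15 CPM in rich and 4.52 CPM in other spots of Y3, 98.5 and 8.24 in A1, 12.8 and 3.45 in A2, and 16.3 and 1.04 in A4 (2.33 ± 0.41, adjusted p = 8.22e-04, edgeR). Cma1, a chymase, was 25.03 and 5.98 CPM in Y3, 84.4 and 11.3 in A1, 19.4 and 10.1 in A2, and 21.7 and 2.46 in A4 (1.90 ± 0.32, adjusted p = 5.17e-04). The A1 values were the highest for both genes, and Tpsb2 in rich spots of A4 rested on 3 UMIs. In edgeR's test Tpsb2 lost its call with the top 3% of spots (1.42, adjusted p = 0.196). With Y1 and Y2 added it was lost too (2.25, adjusted p = 0.119), and 0 of 2 tested mast cell genes were called. Against other spots of like UMIs 2 of 2 were called. Mcpt4, another chymase, rose as well (2.13 ± 0.57), while Cpa3, the mast cell carboxypeptidase, did not pass (1.68 ± 0.51, adjusted p = 0.057). All 4 were at 0 in the rich spots of Y1 and Y2, which hold 171310 and 186744 UMIs in all.

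Smooth muscle genes were higher in rich spots. Of 8 genes of smooth muscle and pericytes 6 were higher and 0 lower, with a median of 1.53. Tagln, the actin-binding transgelin, was 360 CPM in rich and 113 CPM in other spots of Y3, 1191 and 292 in A1, 426 and 139 in A2, and 1136 and 186 in A4 (1.94 ± 0.15, adjusted p = 1.95e-08, edgeR). The lowest rich value exceeded the highest other value. Cnn1, Des, Acta2, Myh11 and Actg2, genes of the contractile apparatus, rose by 1.38 to 2.06, with Actg2 going the other way in Y3 (11.9 and 18.1 CPM), whereas the pericyte genes Rgs5 (0.20 ± 0.20) and Pdgfrb (-0.25 ± 0.16) did not pass. Mustn1 and Pdlim3, further genes of muscle, were among the 15 largest rises at 2.08 ± 0.18 and 1.66 ± 0.24. Against other spots of like UMIs 6 of 8 were still called, with a median of 1.08. With Y1 and Y2 added 2 of 8 were called (median 1.15), with the top 15% of spots 1 and without the block 0. These settings called 10, 6 and 2 genes in all. Tagln lost its call in each (adjusted p = 0.0725, 0.166 and 0.22, edgeR). In Y1 the summed level of the 8 genes was 1652 CPM in rich and 1596 CPM in other spots. In Y2 it was 1537 and 1077 CPM.

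Vessel genes rose in part. Of 5 tested genes of lymphatic endothelium 3 were higher, with a median of 1.29. Ccl21a, the chemokine that lymphatic vessels use to draw Ccr7-bearing cells, was 624.6 CPM in rich and 190 CPM in other spots of Y3, 488 and 181 in A1, 349 and 142 in A2, and 1060 and 224 in A4 (1.64 ± 0.15, adjusted p = 2.31e-07, edgeR). Its reads may be shared with near-identical Ccl21 copies. Mmrn1, a protein of lymphatic endothelial cells, rose by 1.66 ± 0.24 and Reln, reelin, by 1.29 (adjusted p = 0.049). Lyve1, the hyaluronan receptor of lymphatic vessels, gave 1.28 ± 0.44 and did not pass (adjusted p = 0.10). Of 8 genes of blood endothelium 3 rose, Cldn5 by 0.94 ± 0.16, Vwf by 1.19 ± 0.24 and Egfl7 by 0.55 ± 0.15. Against other spots of like UMIs 2 of 5 lymphatic and 1 of 8 blood endothelial genes were called. With Y1 and Y2 added, with the top 15% of spots or without the block, 0 of either list were called. Ccl21a lost its call in each (adjusted p = 0.0863, 0.376 and 0.12, edgeR). In Y2 it was 161 CPM in rich and 196 CPM in other spots, and in Y1 771 and 416 CPM. Of 6 genes of high endothelial venules, where lymphocytes enter lymph nodes, only Vcam1 was frequent enough to test, and it was not called. Ackr1, a chemokine-binding receptor of venules, was 3.58 CPM in rich and 0 CPM in other spots of Y3, 4.69 and 1.44 in A1, 1.02 and 0.27 in A2, and 0 and 0.39 in A4. Madcam1, Glycam1 and Chst4 were at 0 in rich spots and under 1 CPM in other spots, so these depths show no difference.

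Stromal and complement genes followed. Of 10 stromal genes 5 were higher (median 0.47). Dcn, decorin, was 600 and 212 CPM in Y3, 708 and 386 in A1, 603 and 489 in A2, and 723 and 163 in A4 (1.15 ± 0.19, adjusted p = 5.70e-04, edgeR), and Agt, angiotensinogen, rose by 1.51 ± 0.15. Of 12 complement genes 5 were higher and 0 lower (median 0.43). C4b was 104 CPM in rich and 36.0 CPM in other spots of Y3, 46.9 and 24.3 in A1, 61.8 and 24.0 in A2, and 141 and 29.1 in A4, without overlap (1.53 ± 0.17, adjusted p = 5.05e-06). C3, the central complement component, rose by 1.22 ± 0.18 and the inhibitor gene Serping1 by 0.92 ± 0.16. Against other spots of like UMIs 2 of 10 stromal and 2 of 12 complement genes were called.

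For antigen presentation and myeloid genes the calls were these. Of 7 tested MHC class II genes 3 were higher (median 0.54), among them H2-Aa at 0.58 ± 0.15. Of 12 MHC class I genes 2 were higher, H2-D1 by 0.66 ± 0.15 and the immunoproteasome gene Psmb9 by 0.88 ± 0.18. Of 12 interferon response genes 3 were higher, led by Ifi27l2a at 1.08 ± 0.16. Of 8 macrophage genes 2 were higher, Lyz2 (0.69 ± 0.20) and C1qa (0.49 ± 0.14). Among genes of lipid-laden macrophages Gpnmb (1.19 ± 0.24) and Trem2 (0.89 ± 0.20) rose and Fabp5, a fatty acid carrier, fell (-0.62 ± 0.17). Against other spots of like UMIs 0 genes of MHC class I, 0 of class II, 0 of the 8 macrophage and 0 of the 10 lipid-laden macrophage genes were called by edgeR. The calls of Lyz2, C1qa, Gpnmb, Trem2 and Fabp5 were thus lost there. In that setting 60 of 10800 genes were called higher and 36 lower, so counts of 0 in lists this short are near the shares over all genes.

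Genes for homing and survival were tested as well. Of 12 tested homing and retention genes 2 were higher, Ccl21a and Cxcl10 (1.45 ± 0.41, adjusted p = 0.041, edgeR), a chemokine induced by interferon that was 8.34, 4.69, 17.4 and 0 CPM in rich spots of Y3, A1, A2 and A4 and 2.82, 1.03, 5.57 and 4.14 CPM in other spots. The 0 CPM of A4 cannot be told from the level of its other spots, since a count of 0 there allows up to 16.3 CPM. Cxcl12, the niche chemokine, was 103 CPM in rich and 65.2 CPM in other spots of Y3, 32.8 and 92.7 in A1, 79.1 and 59.7 in A2, and 174 and 43.3 in A4, and did not pass (0.55 ± 0.23, adjusted p = 0.20). Its receptor Cxcr4 stood at 0 to 10.9 CPM in rich spots (-0.87 ± 0.51, adjusted p = 0.42). The gut-homing chemokine gene Ccl25 (-0.63 ± 0.48) and the integrin genes Itgb7 (0.79 ± 0.36) and Itgb1 (-0.26 ± 0.15) did not pass, nor did Vcam1 (-0.29 ± 0.23) or Ccl5 (0.90 ± 0.27). Cxcl13, Ccl28, Ccr10 and Ccr9 were too rare to test. Of 7 tested survival genes 0 were called by edgeR, with Tnfsf13 at 0.33 ± 0.22 and Tnfsf13b at 0.48 ± 0.42.

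Of the transport receptors, Pigr had 0 UMIs in rich spots of every section, Igha-led ones included, and at most 0.63 CPM in other spots of Y1, Y2, Y3, A1, A2 and A4. Fcgrt, the neonatal Fc receptor that recycles IgG, was 174, 174, 178 and 147 CPM in rich spots of Y3, A1, A2 and A4 and 120, 84.9, 148 and 82.4 CPM in other spots (0.58 ± 0.15, adjusted p = 0.023, edgeR). Against other spots of like UMIs it gave 0.38 with an adjusted p of 0.342.

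Genes of the follicle and corpus luteum were lower. Of 7 tested granulosa genes 0 were higher and 5 lower, with a median of -1.38, and of 8 luteal genes 7 were lower, with a median of -1.02. Nppc, whose peptide holds oocytes in meiotic arrest, was 2.38 CPM in rich and 14.7 CPM in other spots of Y3, 9.38 and 130 in A1, 3.06 and 8.49 in A2, and 5.44 and 44.3 in A4 (-2.57 ± 0.36, adjusted p = 6.62e-05, edgeR). Inhbb, an activin and inhibin subunit gene, was 39.3 and 175 CPM in Y3, 98.5 and 308 in A1, 14.3 and 44.3 in A2, and 147 and 348 in A4 (-1.72 ± 0.17). Star, which brings cholesterol into mitochondria for steroid synthesis, fell by 1.10 ± 0.18. Cst8, a cystatin gene, fell in all 4 sections, from 495, 603, 157 and 691 CPM in other spots of Y3, A1, A2 and A4 to 98.9, 98.5, 38.3 and 136 CPM in rich spots (-2.32 ± 0.16, adjusted p = 5.84e-09). Against other spots of like UMIs 2 of 7 granulosa (median -0.88) and 0 of 8 luteal genes (median -0.58) were called. In that setting 36 of 10800 genes were called lower, so 0 of 8 is near the share over all genes.

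**Figure D4:**
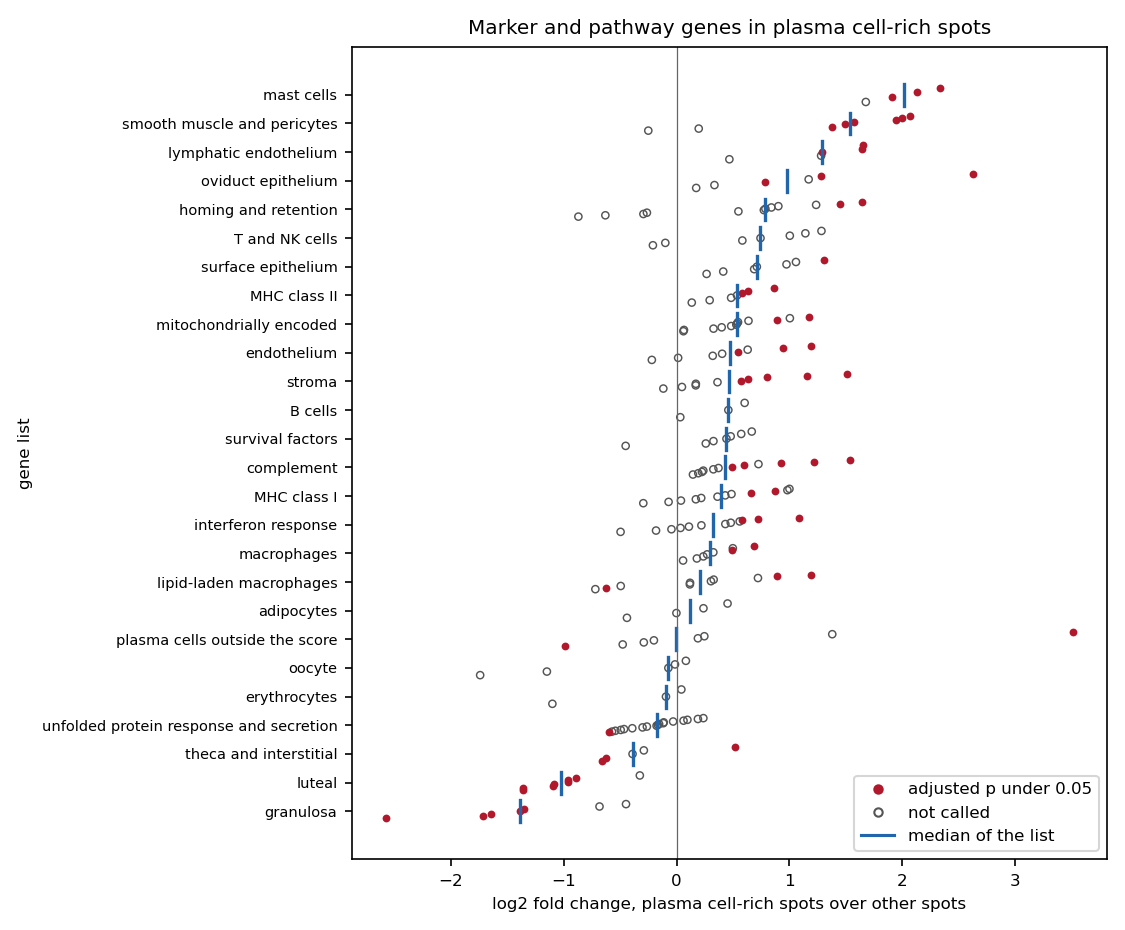
Log2 fold change of the tested genes of each list (x axis), plasma cell-rich over other spots, in red where the adjusted p was under 0.05, with a blue bar at each list's median. Mast cell and smooth muscle genes lie furthest right (medians 2.02 and 1.53) and granulosa and luteal genes furthest left (-1.38 and -1.02).

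The differences shrank with distance. From rich spots to spots at 0.5 to 1.5, 1.5 to 2.5 and 2.5 to 4.5 spacings, Tagln went from 1136 to 588, 467 and 185 CPM in A4 and from 360 to 303, 131 and 87.7 CPM in Y3. Slpi fell faster in A2, from 226 to 14.0, 8.27 and 6.81 CPM. Ccl21a went from 624.6 to 376, 220 and 204 CPM in Y3. Cst8 took the opposite course in A1, from 98.5 to 166, 311 and 636 CPM, but had no steady rise in A2, with 38.3, 130, 213 and 139 CPM and then 15.6 CPM in the 15 spots beyond 4.5 spacings. In A4 it went from 136 to 181, 272 and 213 CPM and then to 1010 CPM. The score itself fell from 61.4 to 5.74, 1.82 and 0.827 per 10000 in Y3. The first step of that fall was set by the rule, since no other spot scored above 14.571. UMIs per spot moved with distance as well, from a median of 7054 in rich spots of A4 to 8039, 10033 and 17362, and their part in these profiles was not tested.

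**Figure D5:**
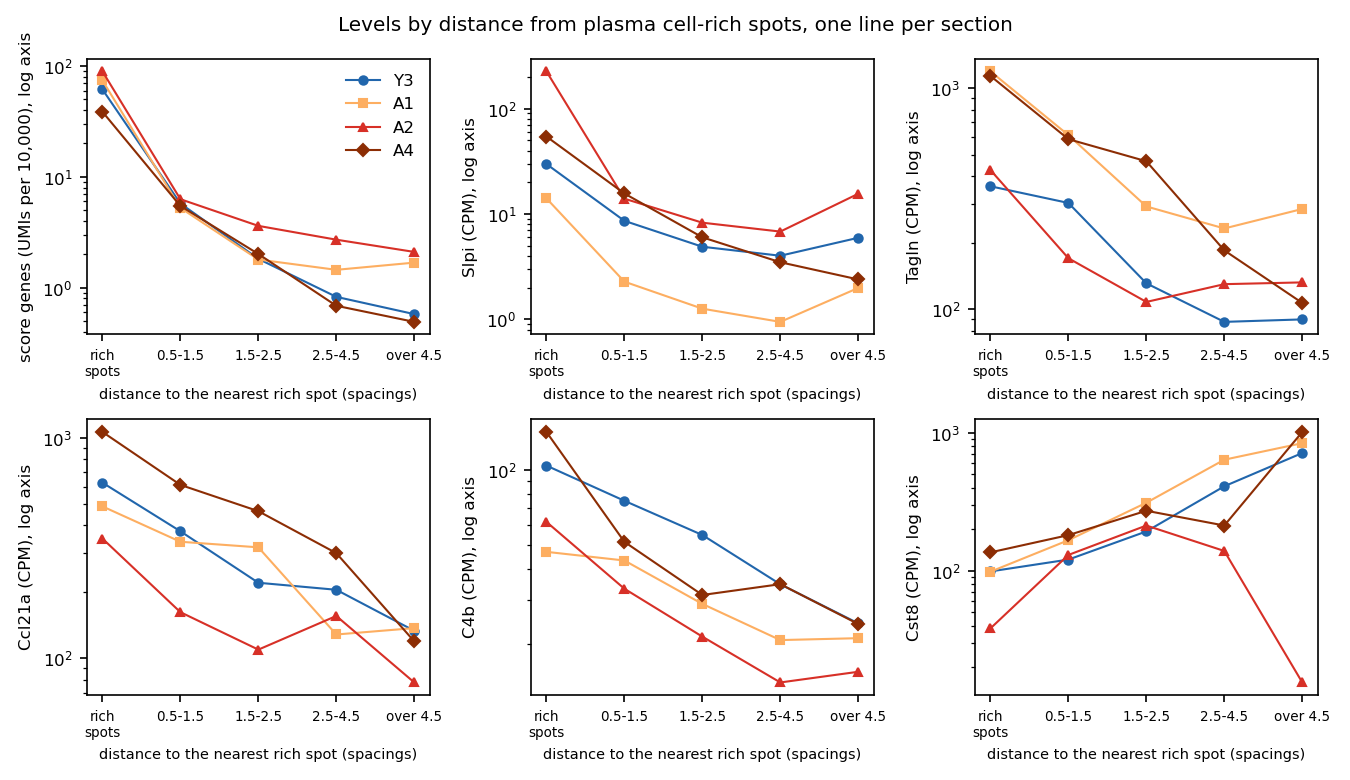
Levels by distance from plasma cell-rich spots in Y3, A1, A2 and A4, with distance in spot spacings on the x axis and the level on a log y axis, 1 line per section. Slpi and C4b fall from the rich spots to the spots next to them in all 4 sections, and Cst8 rises. The score falls there by the rule that chose the spots.

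Position and mitochondrial share had no common direction over the 4 sections, and the exact permutation test of 4 sections could not go below p = 0.125. The mean distance to the section edge was 2.04 against 3.01 spacings in Y3, 1.76 against 2.29 in A1, 6.71 against 4.09 in A2 and 2.45 against 2.16 in A4, a mean difference of 0.355 ± 1.6 (SD, n = 4, exact sign-flip permutation p = 0.875). The rich spots of A2 thus lay deep in the ovary, while those of Y3 and A1 lay nearer the rim. Mitochondrial transcripts took 2.03% of UMIs in rich and 1.01% in other spots of Y3, 3.65 and 2.48% in A1, 1.30 and 1.40% in A2, and 1.24 and 1.31% in A4 (exact p = 0.50). Neighbouring positions off the tissue made up 10.5% for rich and 8.85% for other spots on average (exact p = 0.75).

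The rich spots of Y1 and Y2 were too few for the fit and differed from the rest. Of the genes that rose in the fit, 86 of 312 (27.6%) were higher in the rich spots of Y1, against 36.6% of all tested genes with a positive fold change, and 182 of 312 (58.3%) in Y2, against 54.3%. Of those that fell, 90 of 299 (30.1%) were lower in Y1 and 243 of 299 (81.3%) in Y2, against 53.5% and 55.2% of all genes with a negative one. A gene with 0 UMIs in rich spots counts as lower here. Among genes of at least 20 CPM in the section, 29.9% of the risen genes were higher in Y1, against 42.5%. In Y2 133 of 217 (61.3%) were higher, against 61.4%, which is no excess. Of the fallen genes, 26.6% were lower in Y1 against 46.1%, and 80.4% in Y2 against 51.1%. Cst8 was 590 CPM in rich and 85.8 CPM in other spots of Y1, the reverse of the other sections. The Y2 patch carried markers of oviduct epithelium: Ovgp1, the oviduct glycoprotein, was 921 CPM in rich and 36.8 CPM in other spots, and Foxj1, which governs motile cilia, 584 and 19.3 CPM. Ltf, lactotransferrin, was 953 and 23.7 CPM there. In the fit over Y3, A1, A2 and A4, 3 of 6 tested oviduct genes were higher (Ovgp1, Tppp3 and Epcam) and 0 lower, with a median of 0.97. The summed level of 8 oviduct genes was 4894 CPM in the Y2 patch, 459 CPM in rich spots of Y3 and 52.5 to 125 CPM in those of Y1, A1, A2 and A4. Ovgp1 was 291 CPM in rich and 30.9 CPM in other spots of Y3. The part of oviduct tissue in the plasma cell signal of Y2 and Y3 was not tested.

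Age could be compared in rich spots only as the section labelled Y3 against A1, A2 and A4, with 2 residual degrees of freedom and no capture area that held both ages. The section and the age cannot be told apart in this comparison. If the ages of area 3 were exchanged, the comparison would hold no young section. In edgeR's quasi-likelihood test 9 of 9213 genes (0.0977%) were called, 1 higher and 8 lower in the aged sections than in Y3. Ovgp1 was 291 CPM in Y3 and 4.69, 4.08 and 16.3 CPM in A1, A2 and A4 (-5.50 ± 0.48, adjusted p = 3.72e-05). Ltf was 75.1 CPM in Y3 and 0, 1.02 and 0 CPM in the aged sections. Ecrg4, a secreted peptide precursor, was 266 CPM in Y3 and 0, 9.70 and 0 CPM, against 12.6 CPM in other spots of Y3. Defb19, a beta-defensin gene, was the 1 gene higher in the aged sections, at 10.7 CPM in Y3 and 281, 133 and 152 CPM in A1, A2 and A4 (4.17 ± 0.64, adjusted p = 0.018). In Y1 and Y2, which did not enter, it was 81.7 and 5.35 CPM in rich spots.

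Sectm1b, Tnc, Rgl1, Mamdc2 and Sectm1a were high in all of Y3 rather than in its rich spots: Sectm1b was 797 CPM in rich and 997 CPM in other spots of Y3 and at most 14.1 CPM in rich or other spots of Y1, Y2, A1, A2 and A4. Tnc, the matrix protein tenascin C, was 1222 and 1423 CPM in Y3 and 120 to 196 CPM in rich spots of the aged sections. With Y1 and Y2 added, 0 genes were called (107 at an unadjusted p under 0.05). With the capture area as a replicate block besides, 3 were called, none of them among the 9. The number of calls rose to 144 without A2, 60 without A4 and 29 without A1.

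Whether the contrast between rich and other spots differed between Y3 and the aged sections was tested by an interaction term, in the same 4 sections. In edgeR's test 11 of 12284 genes (0.0895%) were called. Defb19 was lower in rich than in other spots of Y3 (10.7 and 142 CPM) and higher in A1 (281 and 181), A2 (133 and 48.0) and A4 (152 and 91.2), a difference of 4.59 ± 0.50 (adjusted p = 2.03e-06). Malat1, a nuclear RNA, was 2443 and 365 CPM in Y3, 2078 and 866 in A1, 587 and 1141 in A2, and 321 and 300 in A4 (-2.77 ± 0.47). Akr1c18, which breaks down progesterone in the regressing corpus luteum, was 5472 and 4526 CPM in Y3, 1065 and 2075 in A1, 1725 and 4699 in A2, and 2484 and 10324 in A4 (-1.92 ± 0.37). Spp1, osteopontin, was 464 and 225 CPM in Y3, 42.2 and 33.6 in A1, 385 and 930 in A2, and 571 and 2473 in A4 (-2.68 ± 0.44). All of these rest on Y3 as the lone young section, and with Y1 and Y2 added 0 were called (316 at an unadjusted p under 0.05).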

How the data were processed

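Ovary cryosections of 8 mice were profiled by Visium, in which spots on a slide capture polyadenylated RNA. Each deposited table is a matrix of unnormalized UMI counts, genes by spots, made by the authors with Space Ranger 1.2.1 on mm10, per the submitters' processing notes; the spot positions came with them. Spots were assigned to the 2 sections of a capture area at the widest gap along the axis the labels name, within the middle 60% of the range. Counts of rich spots and of the other spots with at least 1000 UMIs were summed per section, and sections with at least 10 rich spots entered. Sums were tested in R 4.3.3 with edgeR 4.0.16 (TMM, filterByExpr, quasi-likelihood F test, Benjamini-Hochberg threshold 0.05), with section as a block for rich against other spots. Sections count as animals, of which there is 1 per section as far as the labels say.

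CPM values are UMIs of a gene over all UMIs of the summed spots. The fits were tested on simulated data, and 392 immunoglobulin genes were kept out of the calls. Single measures were compared by two-sided exact sign-flip permutation tests over sections (Python 3.11.15, scipy 1.17.1). The text names all score genes, members of 32 marker and pathway lists, and up to 15 genes per direction with the largest fitted change, an adjusted p under 0.05, a mean of at least 20 CPM in the higher group and the same direction in every section, as well as the genes called with age. The spots and the lists were chosen with earlier results of these data known. The alternatives were RLE size factors, no filter on low counts, DESeq2 1.42.0, library sizes without immunoglobulin genes, no block, the top 3% or 15% of spots, at least 5000 UMIs, a score without Igkc, k-means sections, nearby other spots, other spots of like UMIs, spots at least 2 spacings from the edge and leaving out each section. Sections with at least 5 rich spots, with and without the capture area as a block, were added after seeing the data. Sections of 1 area share a library per the labels; the deviations of the 2 sections correlated at 0.027 in area 1 and 0.0011 in area 2 over 9067 genes. Intervals cover counting error only. Doublets have no meaning for spots and none were called. Sequences were read from GENCODE M21 transcripts on mm10.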

Additional observations from a re-analysis of the deposited data

Results flagged for a closer look

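In 5 of 40 groups of 4 sections, 1 section lay far from the other 3. The groups included values that the score rule used and genes picked for a large change in 1 direction. The usual rate of about 1 in 20 groups therefore does not apply, and the count is a description. The share of plasma cell-rich spots was 15.7% in Y3, far above the other young sections; this is a description, since the score chose the spots. The log2 ratio of rich to other spots, with 2 CPM added, was -0.63 in A2 for Slc38a3, a glutamine transporter, against -1.80 in Y3. For Hmgcs1, an enzyme of cholesterol synthesis, it was -0.74 in A2 against -2.08 in A1. For Dhcr7, the last enzyme of that pathway, it was -3.23 in A4 against -1.27 in Y3. The lambda light chain level was 223 CPM higher in rich than in other spots of A1.

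For 11 genes the difference between rich and other spots was not the same in Y3, the lone young section, as in A1, A2 and A4 (interaction term, edgeR's quasi-likelihood test with Benjamini-Hochberg adjustment), and section and age cannot be told apart. With Y1 and Y2 added 0 were called (316 at an unadjusted p under 0.05). The log2 difference, aged sections minus Y3, was 4.59 for Defb19, -4.38 for Ecrg4, -2.97 for Hba-a1, -2.68 for Spp1, -2.93 for Sncg and -2.77 for Malat1. It was -2.10 for Hbb-bs, -1.92 for Akr1c18, -2.32 for Qpct, -1.93 for Bmp7 and -1.80 for Onecut2. The 2 globin genes, which mark red blood cells, were higher in rich spots of Y3 (Hba-a1 58.4 and 15.1 CPM) and lower in those of A1 (23.5 and 124 CPM). What underlies these differences was not tested.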

How the results depend on the processing

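The 611 genes called between rich and other spots became 967 with no filter on low counts, 378 with DESeq2, 375 with the top 3% of spots, 6 with the top 15%, 96 against other spots of like UMIs, 329 at least 2 spacings from the edge, 10 with sections of at least 5 rich spots and 2 with no replicate block, and 360 to 520 when a section was left out. Of the 9 genes called with age, the count was 61 with no filter, 0 with the top 15% (259 at an unadjusted p under 0.05), 0 with sections of at least 5 rich spots (107), 3 with those and the capture area as a replicate block, and 29 to 144 when an aged section was left out; DESeq2 called 6. The 11 genes of the interaction became 23 with no filter, 3 with DESeq2, 7 with at least 5000 UMIs per spot, 7 with a score without Igkc, 0 with the top 15% (328), 0 with sections of at least 5 rich spots (316), and 13 to 28 when an aged section was left out. Of the 30 named genes, 2 stayed called without the block, 2 with the top 15% and 7 with at least 5 rich spots. Genes higher in rich spots made up 51.1% of the calls, 55.8% with RLE size factors and 36.4% with no filter. The difference in distance to the edge was -0.41 with the top 15%, -0.30 with at least 5 rich spots and -0.401 to 0.795 when a section was left out, and that in neighbours off the tissue -0.589 to 3.75. Genes that were not called changed sign: Fkbp11 to 0.12 with the top 3% and from -0.53 to 0.086 when a section was left out, Vcam1 from -0.62 to 0.22 and Ccl5 from -0.0023 to 1.09. With age, Tnc turned to 1.19 with sections of at least 5 rich spots and the capture area as a block together, and with the top 15% Akr1c18 went to 0.38 and Onecut2 to 0.51 in the interaction. The causes were not tested. No age comparison was possible without Y3 or with the top 3%, and the block by capture area could not be fitted with at least 10 rich spots, since no area held both ages. Rich spots of 4 sections hold 183979 to 1958387 UMIs, so a gene at a few CPM rests on 1 or 2 UMIs in A1 and A4.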
